A study of Mus musculus with 12 samples.

Results

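Fat cells build fatty acids from acetyl-CoA in the cytosol. ATP citrate lyase (Acly) releases acetyl-CoA from citrate, acetyl-CoA carboxylase (Acaca) turns it into malonyl-CoA, and fatty acid synthase (Fasn) joins these units into palmitate with NADPH that malic enzyme (Me1) helps to supply. The elongase Elovl6 lengthens palmitate and the desaturases Scd1 and Scd2 put in a double bond. Insulin and glucose raise these genes through the transcription factors SREBP-1 (gene Srebf1) and ChREBP (gene Mlxipl), and Thrsp, the Spot 14 protein, is a nuclear and cytosolic promoter of the pathway in fat and liver. These 10 genes were chosen by name, with earlier results of these data known. Each was found as 1 row of the 15754 genes in the count table.

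The genes were measured by sequencing total RNA of primary white adipocytes from epididymal fat of 8-week-old male C57BL/6 mice, wild type and fed chow. The let-7d mimic group received a mimic of let-7d-5p, the let-7e mimic group a mimic of let-7e-5p and the negative control group a control RNA, each by reverse transfection on day 4 after induction, and all were harvested on day 7. All 3 groups shared the same stromal vascular starting cells and the same differentiation medium, which held rosiglitazone at 1 µM and insulin at 850 nM throughout, with dexamethasone at 1 µM and IBMX, a phosphodiesterase inhibitor, at 250 µM at induction. Insulin and rosiglitazone themselves promote fat synthesis, so every value below was taken under that stimulus. Each group had 4 libraries with totals of 15071299 to 33396316 counts. Their sample identifiers fall into 2 series, series 1 with replicates 1 and 2 of each group and series 2 with replicates 3 and 4, with no label giving the reason for the split. Series 1 and series 2 lay apart on principal component 1, which carried 81.9% of the variance, so the mimics were compared with a term for series, and values within each series are given. Whether replicates came from different mice or dishes is not stated, and p-values therefore rest on a library-to-library spread that could be technical only. The labelled cell type was checked with 10 adipocyte markers, of which 9 were in the table and Lep was not. Their summed level was 4773 to 6850 CPM (counts scaled to the size of the library) in series 2 and 19755 to 21640 CPM in series 1. Markers of fibroblasts and fat cell precursors summed to 14420 to 16730 CPM in series 2 and 26220 to 30550 CPM in series 1. That sum is weighted to the most abundant markers. Of the 10, 5 were higher and 5 lower in series 2 at an edgeR adjusted p under 0.05 (median log2 difference 0.31), beside 81.7% of all genes in either direction. Smooth muscle markers summed to 4883 to 6506 CPM in series 2 and 2546 to 4043 CPM in series 1. Of 6 lymphocyte markers 0 were in the table.

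Both mimics carry the let-7 family seed, the bases that pair with target messages. The sequences below are the mature mouse microRNAs of RefSeq (GRCm38.p6), shown because the seed is what the mimics share, and capitals mark the seed, bases 2 to 8. The sequences of the synthetic mimics themselves are not given in the labels.
let-7d-5p, chr13:48536078-48536099, minus strand: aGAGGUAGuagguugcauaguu
let-7e-5p, chr17:17830366-17830387, plus strand: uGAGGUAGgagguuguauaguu
Counted from the 5′ end with the let-7d base given first, they differ by A1U, U9G and C16U, all outside the seed. As a check of the labels, 2 known let-7 targets, Hmga2 and Dicer1, were lower in both mimic groups. Hmga2, a chromatin protein, fell by 0.84 ± 0.098 (SE, log2) with let-7d and by 0.59 ± 0.095 with let-7e (edgeR adjusted p = 4.73e-05 and 0.00105). Dicer1, which cuts microRNA precursors, fell by 0.52 ± 0.061 and by 0.45 ± 0.061 (edgeR adjusted p = 4.84e-05 and 0.000213).

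The 3′ UTRs of the 10 genes were searched for matches to the seed, CTACCTC (pairing with bases 2 to 8), TACCTCA (pairing with bases 2 to 7, before an A) or both together as CTACCTCA. Of 13547 genes with an annotated 3′ UTR, 17.0% hold at least 1 match. Of the 10 members, 3 do, 1 match each, and they are printed with the match in capitals and flanking bases in lower case.
Thrsp, base 355 of a 3′ UTR of 597 bases, 8-base match: ggatgctgtatCTACCTCAcacggttacta
Scd1, base 1557 of 3464, 7-base match: ccagatcctccCTACCTCcaactcatgtg
Scd2, base 3288 of 3664, 7-base match: atattcctgacCTACCTCcacgggtaggt
Thrsp alone among the 10 holds the 8-base match, and the share of all genes with an 8-base match was not counted. The 3′ UTRs of Acly, Me1, Acaca, Fasn, Elovl6, Mlxipl and Srebf1 hold no match in the transcript with the longest 3′ UTR. A match is a description of these letters and not a shown site of action.

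With the let-7d mimic, 4 of the 10 genes fell and 0 rose: Acly, Me1, Fasn and Thrsp. This is 40.0% of the members, beside 9.81% of all 15754 genes called lower and 6.41% called higher in the same edgeR comparison at an adjusted p under 0.05. The 10 genes were chosen with earlier results of these data known, so these shares are a description and not an independent test. With the let-7e mimic, 2 of 10 fell, Fasn and Thrsp, and 0 rose, beside 5.69% of all genes called lower and 3.81% called higher. The median log2 fold change of the 10 was -0.18 with let-7d and -0.095 with let-7e, against -0.0022 and -0.0019 over all genes. By DESeq2 the let-7d count was 4 and the let-7e count was 4, adding Acly (adjusted p = 0.0227) and Me1 (0.0473). Both comparisons use the same control libraries. Within series 2, 4 of 10 fell with let-7d (Me1, Acaca, Fasn and Thrsp; 5.26% of all genes called lower) and 1 of 10 with let-7e (Thrsp; 1.56%). Within series 1, 2 of 10 fell with let-7d (Acly and Thrsp; 6.28%) and 1 of 10 with let-7e (Thrsp; 4.02%).

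**Figure D1:**
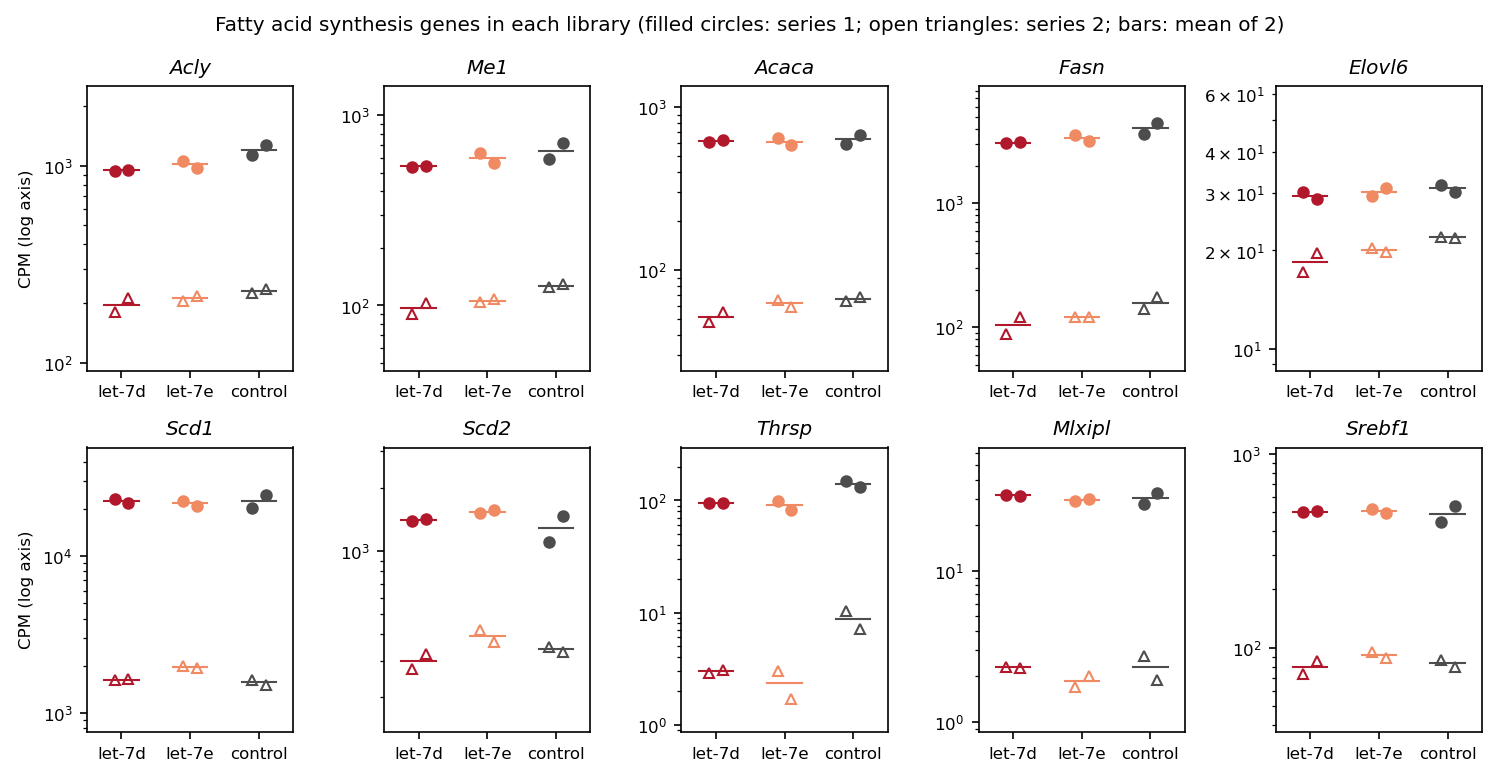
CPM on a log axis for the 10 genes in each library, with let-7d mimic, let-7e mimic and negative control libraries from left to right. Filled circles are series 1, open triangles series 2 and bars the mean of 2 libraries; Thrsp and Fasn lie lower in every mimic library than in the control libraries of the same series, and every gene lies lower in series 2.

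Thrsp had the largest fall of the 10 with either mimic. The gene lies on the minus strand of chromosome 7 at 97412938 to 97417730 (GRCm38). It stood at 94.9, 94.5, 2.91 and 3.09 CPM in let-7d replicates 1 to 4 and at 99.3, 81.4, 2.98 and 1.70 CPM in let-7e replicates 1 to 4, against 149, 131, 10.4 and 7.08 CPM in control replicates 1 to 4. In each series all mimic libraries lay below both control libraries. Here and below, such an order rests on 2 control libraries per series, which both mimics share. How many of all genes show such an order was not counted, so it is given here and below as a description only. The log2 fold change was -0.86 ± 0.19 (SE) with let-7d and -0.97 ± 0.18 with let-7e (edgeR adjusted p = 0.00506 and 0.00344), a fall to 0.552 and 0.510 of the control level. Within series 1 the log2 fold changes were -0.56 ± 0.13 and -0.63 ± 0.13, and within series 2 they were -1.55 ± 0.22 and -1.86 ± 0.22, each called by edgeR (adjusted p up to 0.0126). The levels in series 2 rest on few counts, 77 and 77 with let-7d and 100 and 44 with let-7e, against 276 and 173 in the controls. Thrsp stayed called in all 16 fits that left out 1 library of either comparison.

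Fasn, the multifunctional synthase of palmitate, was the other gene called with both mimics. It lies on the minus strand of chromosome 11 at 120805846 to 120824547. It stood at 3041, 3103, 88.8 and 119.9 CPM in the let-7d libraries and at 3551, 3176, 120.0 and 122 CPM in the let-7e libraries, against 3647, 4405, 140.1 and 176 CPM in the controls. All mimic libraries lay below both control libraries of their series. The log2 fold change was -0.49 ± 0.094 with let-7d and -0.32 ± 0.094 with let-7e (edgeR adjusted p = 0.00224 and 0.0410). Within series 1 and series 2 the let-7d value was -0.39 and -0.60 (edgeR adjusted p = 0.0698 and 0.0140), so only series 2 passed. The let-7e value was -0.26 and -0.39 (0.267 and 0.162) and passed in neither. The let-7d call over both series held in all 8 fits without 1 library. The let-7e call was lost without control replicate 2 (-0.28, adjusted p = 0.109) or 4 (-0.24, 0.122) and without let-7e replicate 1 (-0.36, 0.0638), 2 (-0.30, 0.127), 3 (-0.32, 0.0872) or 4 (-0.32, 0.0917), and under library totals with no scaling factor (-0.31, 0.0554).

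The enzymes that supply the synthase, Acly and Me1, fell with let-7d. Acly (chromosome 11, 100476353 to 100528000, minus strand) had 941, 951, 181 and 212 CPM with let-7d and 1056, 977, 207 and 217 CPM with let-7e, against 1130, 1268, 226 and 238 CPM in the controls. All mimic libraries lay below both controls of their series. Its log2 fold change was -0.29 ± 0.060 with let-7d (edgeR adjusted p = 0.00363) and -0.19 ± 0.060 with let-7e (0.0628, not called). Within series 1 and series 2 the let-7d value of Acly was -0.34 and -0.24 (edgeR adjusted p = 0.0167 and 0.0989), so only series 1 passed. Me1 (chromosome 9, 86581371 to 86695953, minus strand) had 538, 543, 90.5 and 103 CPM with let-7d and 631, 562, 104 and 108 CPM with let-7e, against 588, 713, 124 and 129 CPM in the controls. The let-7d libraries lay below both controls in each series, and with let-7e the series 1 values overlapped the controls. Its log2 fold change was -0.33 ± 0.066 with let-7d (edgeR adjusted p = 0.00304) and -0.19 ± 0.065 with let-7e (0.0829, not called). Within series 1 and series 2 the let-7d value of Me1 was -0.27 and -0.39 (edgeR adjusted p = 0.0744 and 0.0187), so only series 2 passed. Without control replicate 1 the let-7e value of Me1 was -0.26 and passed (adjusted p = 0.0123).

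Acaca, the carboxylase that makes malonyl-CoA, did not pass in either comparison. It lies on chromosome 11 at 84129672 to 84401651, plus strand. It had 615, 626, 48.2 and 55.2 CPM with let-7d and 646, 584, 65.4 and 59.7 CPM with let-7e, against 596, 675, 64.8 and 68.9 CPM in the controls. Only the let-7d libraries of series 2 lay apart from their controls. The log2 fold change was -0.19 ± 0.075 with let-7d (edgeR adjusted p = 0.0977) and -0.070 ± 0.074 with let-7e (0.643). With let-7d it was -0.37 ± 0.090 within series 2 (adjusted p = 0.0204) and -0.034 ± 0.084 within series 1 (0.853). The difference between these was not called (-0.34 ± 0.12, edgeR adjusted p = 0.246). Without control replicate 1 the let-7d value was -0.25 (adjusted p = 0.0396). Elovl6 (chromosome 3, 129532355 to 129638495, plus strand) ranged from 17.2 to 30.1 CPM with let-7d and 19.7 to 30.9 CPM with let-7e, against 21.9 to 31.8 CPM in the controls, with log2 fold changes of -0.17 ± 0.061 and -0.088 ± 0.060 (edgeR adjusted p = 0.0752 and 0.429). Its let-7d libraries lay below both controls in each series, and its let-7e libraries did so in series 2 only.

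**Figure D2:**
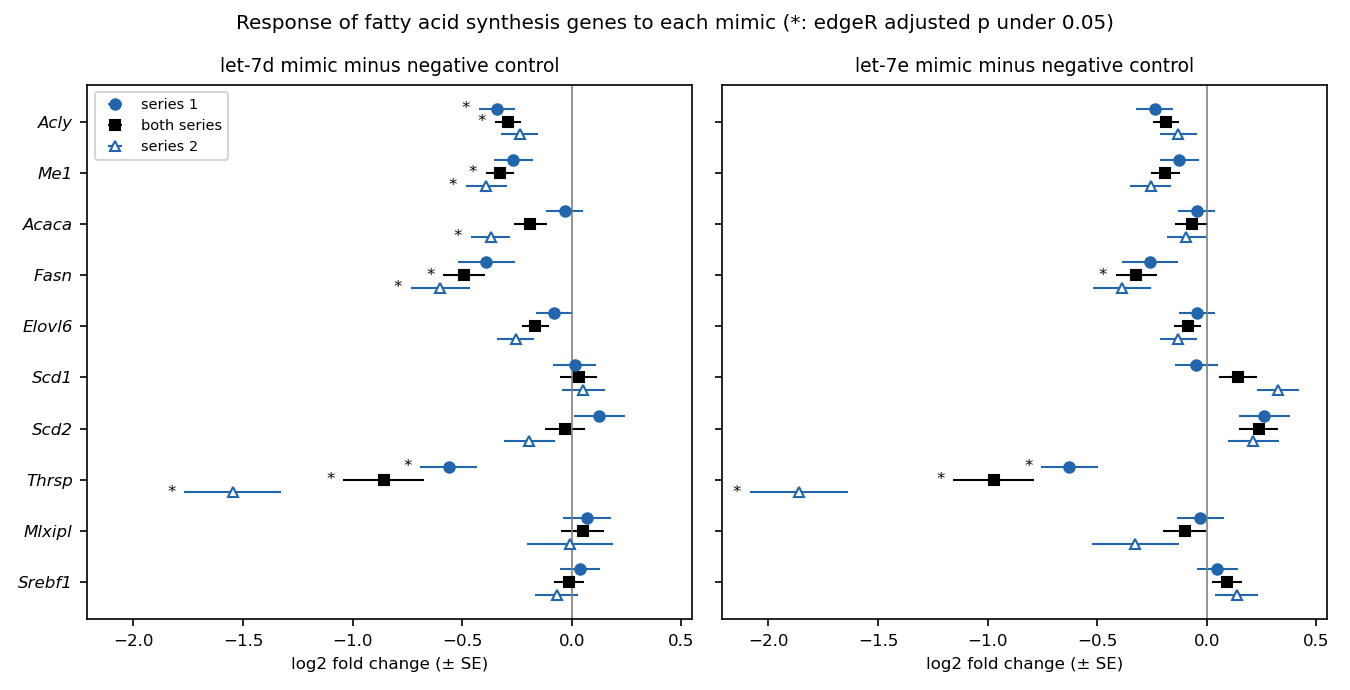
Log2 fold change (± SE, horizontal axis) of each gene with let-7d (left) and let-7e (right), from the fit of both series (squares) and within series 1 (filled circles) and series 2 (open triangles); an asterisk marks an edgeR adjusted p under 0.05. Thrsp reaches -1.55 and -1.86 within series 2, and Scd1, Scd2, Mlxipl and Srebf1 carry no asterisk in either panel.

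The desaturases did not follow the synthase. Scd1, the main stearoyl-CoA desaturase of fat and liver, lies on chromosome 19 at 44394455 to 44407879 (minus strand), and Scd2 at 44293674 to 44306864 (plus strand). Scd1 had 23240, 21872, 1618 and 1646 CPM with let-7d and 22307, 20982, 2009 and 1935 CPM with let-7e, against 20175, 24564, 1637 and 1510 CPM in the controls. Only the let-7e libraries of series 2 lay apart from their controls, above them. Its log2 fold change was 0.031 ± 0.085 with let-7d and 0.14 ± 0.085 with let-7e (edgeR adjusted p = 0.852 and 0.348). Scd2 had 1396, 1420, 272 and 322 CPM with let-7d and 1530, 1567, 420.0 and 367 CPM with let-7e, against 1105, 1477, 349.6 and 330.3 CPM in the controls. Both let-7e libraries lay above both controls in each series, while let-7d libraries lay below the controls in series 2 and overlapped them in series 1. Its log2 fold change was -0.031 ± 0.090 with let-7d and 0.24 ± 0.090 with let-7e (edgeR adjusted p = 0.862 and 0.117). Scd genes are close paralogs, and how reads that map to several places were counted is not given in the sources used here, so the split of reads among them is uncertain.

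The genes of the regulators were not called with either mimic. Srebf1 (chromosome 11, 60199089 to 60222581, minus strand) had 503, 508, 73.0 and 85.5 CPM with let-7d and 522, 497, 94.6 and 88.1 CPM with let-7e, against 444, 542, 86.8 and 79.6 CPM in the controls. Its log2 fold change was -0.013 ± 0.069 with let-7d and 0.091 ± 0.069 with let-7e (edgeR adjusted p = 0.929 and 0.483). Srebf1 overlaps Rai1 on the other strand, and since the strand setting of the counting is not given, reads of the pair cannot be told apart where they overlap. Mlxipl (chromosome 5, 135089890 to 135138382, plus strand) ranged from 2.29 to 31.8 CPM with let-7d and 1.70 to 30.0 CPM with let-7e, against 1.88 to 32.8 CPM in the controls. Its log2 fold change was 0.050 ± 0.098 with let-7d and -0.10 ± 0.097 with let-7e (edgeR adjusted p = 0.790 and 0.595). SREBP-1 is activated by cleavage and ChREBP by glucose metabolites, steps that message levels do not measure.

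The mimics were compared with each other for all 10 genes, as let-7d minus let-7e. edgeR called 0 of the 10, beside 0.152% of all genes called in either direction, and 0 were called by DESeq2 and by limma-voom. At an unadjusted edgeR p under 0.05 there was 1 of the 10, beside 1467 of all 15754 genes. It was Scd2, with a log2 difference of -0.27 ± 0.090 (adjusted p = 0.347). The difference was -0.17 ± 0.094 for Fasn, -0.11 ± 0.060 for Acly, -0.14 ± 0.065 for Me1 and 0.11 ± 0.19 for Thrsp. These sizes with their errors do not show that the mimics act alike.

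The response was also tested for a difference between the series, as the series 2 effect minus the series 1 effect. edgeR called 0 of the 10 for let-7d and 0 for let-7e, beside 0.241% and 0.00635% of all genes, and DESeq2 and limma-voom called 0 in each. At an unadjusted edgeR p under 0.05 there were 2 for let-7d, Thrsp and Acaca, and 2 for let-7e, Thrsp and Scd1. Of all 15754 genes, 2136 and 1398 passed at that threshold. For Thrsp the difference was -0.98 ± 0.26 with let-7d and -1.23 ± 0.26 with let-7e (edgeR adjusted p = 0.113 and 0.129). For Scd1 with let-7e it was 0.37 ± 0.14 (adjusted p = 0.431). Without control replicate 1 both let-7e differences passed, Thrsp at -1.33 (adjusted p = 0.0382) and Scd1 at 0.51 (0.0375).

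The series themselves differed far more than the groups. All 10 genes were lower in series 2 than in series 1 (edgeR adjusted p up to 8.96e-09), beside 40% of all genes called lower and 81.7% called in either direction. Together they took 0.25% to 0.306% of all counts in series 2 libraries and 2.67% to 3.23% in series 1 libraries. Fasn was 27.5-fold lower in series 2, Thrsp 24.5-fold, Mlxipl 14.2-fold, Scd1 12.9-fold and Acaca 10.4-fold. Srebf1, Me1, Acly and Scd2 were 5.95-fold, 5.44-fold, 4.92-fold and 4.13-fold lower, and Elovl6 1.5-fold. The median log2 difference of the 10 was -2.97, against -1.91 for the 9 adipocyte markers in the table, all of which were also called lower in series 2, from -1.46 (Cfd) to -3.60 (Retn). Macrophage markers were lower too (11 of 12 called, median -2.99). The other lists did not fall as a whole. Of 6 smooth muscle markers 4 were called higher and 2 lower (median 0.90), and of 10 fibroblast and precursor markers 5 and 5 (0.31). Of 7 endothelial markers 2 were called higher and 3 lower (0.13), and of 5 mesothelial markers 2 and 2 (0.12). In these bulk samples fewer cells of a type and less RNA per cell cannot be told apart, and the part of fat cell content in these differences was not tested.

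**Figure D3:**
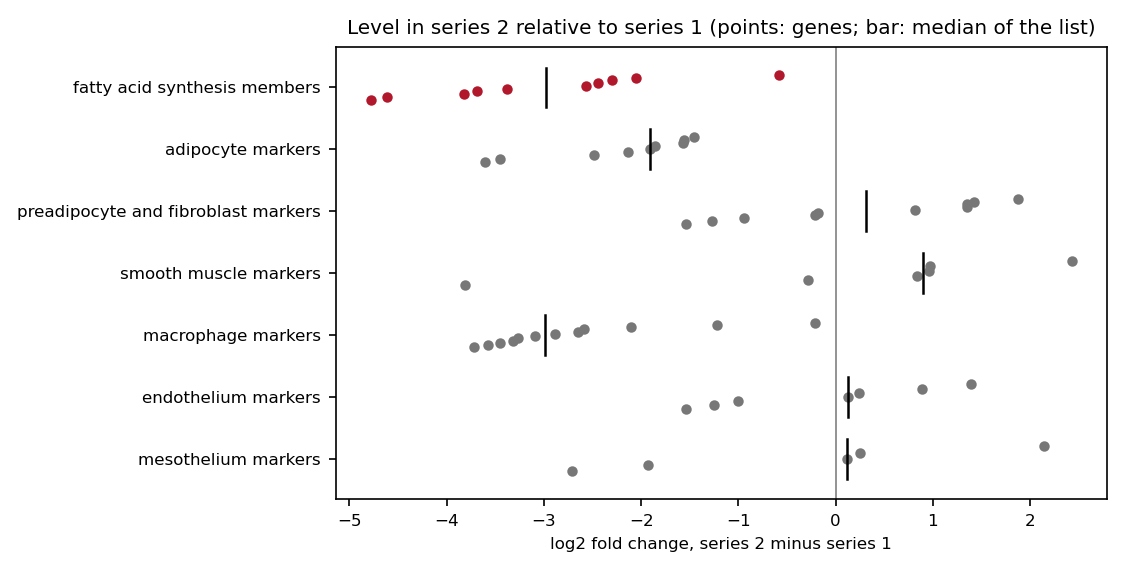
Log2 difference of series 2 minus series 1 for the 10 genes and for each list of cell type markers (each point is a gene, each bar the median of its list). The 10 genes run from -4.78 (Fasn) to -0.59 (Elovl6), and their median of -2.97 lies beside -1.91 for adipocyte markers and -2.99 for macrophage markers. Medians are 0.90 for smooth muscle, 0.31 for fibroblast and precursor, 0.13 for endothelial and 0.12 for mesothelial markers.

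The order of levels among the genes also depended on the series. Levels between genes are compared as CPM per kilobase of annotated exon, in the control libraries, as a description over 2 libraries of each series. In series 2 the order was Scd1 (322), Scd2 (62.2), Acly (43.9), Me1 (32.9), Srebf1 (14.8), Fasn (14.4), Thrsp (3.99), Acaca (3.91), Elovl6 (3.41) and Mlxipl (0.414). In series 1 it was Scd1 (4573), Fasn (368), Scd2 (236), Acly (227), Me1 (169), Srebf1 (87.5), Thrsp (63.8), Acaca (37.2), Mlxipl (5.46) and Elovl6 (4.82). Neighbours whose libraries overlapped were Srebf1 with Fasn and Thrsp with Acaca in series 2, and Scd2 with Acly in series 1. Fasn thus stood 6th in series 2 and 2nd in series 1, and Scd1 stood at the top in both.

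Summed markers of other cells lay apart from the controls in some groups and series. The sum of the adipocyte markers did not separate the groups. In series 1 the adipocyte sum was 20700 to 21430 CPM with let-7d and 20290 to 21640 CPM with let-7e, against 19755 to 21250 CPM in the controls. In series 2 it was 5323 to 6054 CPM with let-7d and 5641 to 6421 CPM with let-7e, against 4773 to 6850 CPM in the controls. This sum, like the sums below, is weighted to the most abundant markers, and each range rests on 2 libraries. Marker by marker, the median log2 fold change of the 9 was -0.042 with let-7d and -0.058 with let-7e. Within series 2, 4 of the 10 fatty acid synthesis genes fell with let-7d. Of the 9 adipocyte markers 2 also fell there, beside 5.26% of all genes called lower. These were the lipid droplet genes Cidec (-0.45 ± 0.095, edgeR adjusted p = 0.00950) and Plin1 (-0.38 ± 0.11, 0.0468). Of the 9, 5 had negative and 4 positive log2 fold changes with let-7d in series 2, from -0.45 to 0.50 (median -0.065). Within series 1, 0 were called, and 1 had an unadjusted edgeR p under 0.05, as had 3993 of all 15754 genes. Over both series Cidec stood at -0.24 ± 0.096 and Plin1 at -0.21 ± 0.086 with let-7d (adjusted p = 0.105 and 0.103). With let-7e Cidec stood at 0.23 ± 0.096 and Plin1 at -0.058 ± 0.086 (0.155 and 0.750). Over both series 1 of the 9 was called, Lpl, the lipoprotein lipase, higher by 0.21 ± 0.068 with let-7d and by 0.26 ± 0.068 with let-7e (edgeR adjusted p = 0.0455 and 0.0247). The let-7d call of Lpl was lost without control replicate 1 or 4 or any single let-7d library (adjusted p = 0.0708 to 0.134), and the let-7e call without control replicate 1 or 4 or let-7e replicate 1, 3 or 4 (0.0547 to 0.0755). Smooth muscle markers (6 of 6 in the table) summed in series 1 to 2774 to 2897 CPM with let-7d and 2546 to 2806 CPM with let-7e, against 3075 to 4043 CPM in the controls, and in series 2 to 4883 to 5327 CPM and 5164 to 5299 CPM, against 6205 to 6506 CPM. Fibroblast and precursor markers (10 of 10) in series 2 summed to 16470 to 16650 CPM with let-7d and 15440 to 16730 CPM with let-7e, against 14420 to 14760 CPM in the controls, and in series 1 to 26220 to 27260 CPM and 29080 to 30550 CPM, against 26470 to 28880 CPM, where only let-7e lay apart from the controls. Macrophage markers (12 of 12) in series 2 summed to 63.0 to 147 CPM with let-7d and 47.7 to 74.8 CPM with let-7e, against 26.7 to 38.1 CPM in the controls, and in series 1 the groups overlapped. Marker by marker, edgeR called 7 higher with let-7d and 0 with let-7e within series 2. Within series 1 it called 2 lower with each mimic. Over all 15754 genes these 4 counts were 519, 144, 989 and 634. Endothelial markers (7 of 7) in series 2 summed to 183 to 273 CPM with let-7d, above the controls, and to 172 to 195 CPM with let-7e, overlapping them, against 171 to 177 CPM in the controls, and in series 1 the groups overlapped. Within series 2 edgeR called 1 of the 7 higher with let-7d and 0 with let-7e. Mesothelial markers (5 of 5) in series 2 summed to 86.2 to 86.4 CPM with let-7d and 88.0 to 90.8 CPM with let-7e, both above the 84.9 to 85.7 CPM of the controls, and in series 1 the groups overlapped. Over both series edgeR called 0 of 7 endothelial and 0 of 5 mesothelial markers with either mimic. Of 12 macrophage markers it called 2 higher with let-7d and 0 with let-7e. Of 6 smooth muscle markers it called 2 lower with each mimic. Of 10 fibroblast and precursor markers it called 3 higher and 1 lower with each. Over all genes 9.81% were lower and 6.41% higher with let-7d, and 5.69% and 3.81% with let-7e. The part of these other cells in the results on fatty acid synthesis genes was not tested.

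Beyond the 10 genes, other genes of fatty acid metabolism were counted from lists chosen by role, with earlier results of these data known. The counts stand beside 9.81% of all genes called lower and 6.41% called higher with let-7d, and 5.69% and 3.81% with let-7e. Of 16 tested genes of elongation and desaturation, 5 fell and 2 rose with let-7d (median -0.11), and 3 fell and 2 rose with let-7e (median -0.11). Fads2, the desaturase that starts polyunsaturated fatty acid synthesis, fell by 0.40 ± 0.053 with let-7d and by 0.24 ± 0.053 with let-7e (edgeR adjusted p = 0.000115 and 0.00926). Its related gene Fads3 fell by 0.40 ± 0.048 and by 0.33 ± 0.048 (5.41e-05 and 0.000424). Elovl3, an elongase of brown and cold-exposed fat, fell by 0.99 ± 0.18 with let-7d (edgeR adjusted p = 0.00120). This combines a log2 fold change of -2.07 ± 0.23 within series 2 with -0.67 ± 0.12 within series 1, and the difference of -1.40 ± 0.26 was called (edgeR adjusted p = 0.0467). The call of that difference was lost without control replicate 2, 3 or 4 or let-7d replicate 1, 2 or 3, where it ran from -1.04 to -1.49 (adjusted p = 0.0514 to 0.226). With let-7e Elovl3 stood at -0.53 ± 0.17 (0.0649). This let-7e fall passed over both series by limma-voom (-0.45, adjusted p = 0.0369) and within series 2 by edgeR (-0.91 ± 0.19, adjusted p = 0.0180). Hacd3, a dehydratase of the elongation cycle, stood higher with let-7d by 0.27 ± 0.043 (0.000655). Scd3, a close copy of Scd1, was called higher with let-7d by 1.02 ± 0.21 (0.00335), at a mean of 4.38 CPM, against 2.21 CPM in the controls, and shares the uncertainty of the Scd reads. Hacd3 and Scd3 were also called higher with let-7e, by 0.17 and 0.80, and stayed called in 12 and 13 of 19 alternative fits. Within a series, Scd3 was not called in series 2 with let-7d (1.24, adjusted p = 0.143), and Fads2 was not called with let-7e in series 2 or series 1 (0.104 and 0.0549). The 5 let-7e calls of either direction became 2 without control replicate 1 or let-7e replicate 1, and 3 without let-7e replicate 2.

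Of 13 genes that supply citrate, acetyl-CoA and NADPH, 5 fell and 1 rose with let-7d (median -0.14), and 0 fell and 1 rose with let-7e (median -0.047), beside the same shares of all genes, 9.81% and 6.41% with let-7d and 5.69% and 3.81% with let-7e. Slc25a1, which carries citrate out of mitochondria, stood lower with let-7d by -0.28 ± 0.055 (edgeR adjusted p = 0.00299), and the aconitase Aco1 by -0.25 ± 0.061 (0.0117), which was -0.34 within series 2 and -0.16 within series 1 (adjusted p = 0.0122 and 0.163). The 6 let-7d calls of either direction became 3 without let-7d replicate 2 and 2 without let-7d replicate 3. The single let-7e call became 0 without let-7e replicate 1, 2 without control replicate 1 or let-7e replicate 3, and 3 without control replicate 4. Of 12 genes of malonyl-CoA handling and the AMP-activated kinase, 3 fell and 0 rose with each mimic (medians -0.081 and -0.040). They include Mcat, the malonyl transferase of mitochondrial fatty acid synthesis, at -0.34 ± 0.059 with let-7d and -0.29 ± 0.058 with let-7e (edgeR adjusted p = 0.00112 and 0.00553). Within series 2 the let-7e value of Mcat was -0.18 (adjusted p = 0.229). Mcat was called in each fit without 1 library, and the count became 1 with let-7d without control replicate 2 or let-7d replicate 1, 2 or 3, and 1 with let-7e without control replicate 2 or any of the 4 let-7e libraries.

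Of 17 genes that control SREBP and ChREBP, 1 fell and 1 rose with let-7d, and 0 fell and 1 rose with let-7e (medians 0.0074 and 0.0059). The shares of all genes were 9.81% lower and 6.41% higher with let-7d and 5.69% and 3.81% with let-7e. Insig1, the membrane protein that retains SREBP and is itself an SREBP target, rose with let-7e by 0.40 ± 0.074 (edgeR adjusted p = 0.00292) and stood at 0.19 ± 0.074 with let-7d (0.0847, or 0.00743 without let-7d replicate 3). The nuclear receptor Rxra rose with let-7d by 0.19 ± 0.047 (0.0118). Within series 2 neither passed (Insig1 with let-7e 0.38, adjusted p = 0.0796, and Rxra with let-7d 0.16, 0.160). The 2 let-7d calls became 1 without control replicate 1, 2 or 3 or let-7d replicate 1 or 2. Of 6 tested further targets of ChREBP, 1 fell with let-7d and 0 changed with let-7e by edgeR, with medians of -0.078 and -0.086. At an unadjusted edgeR p under 0.05 there were 2 with each mimic, beside 4674 and 3610 of all 15754 genes. The let-7d call was Gpd1, which makes glycerol phosphate, at -0.48 ± 0.15 (adjusted p = 0.0337), and it was lost without control replicate 3 (-0.40, 0.0868) or 4 (-0.49, 0.0529) or without let-7d replicate 3 (-0.35, 0.109) or 4 (-0.42, 0.103). Gpd1 stood at -0.84 ± 0.14 within series 2 and -0.17 ± 0.14 within series 1 (adjusted p = 0.00266 and 0.499), and the difference of -0.67 ± 0.20 was not called (0.153). Without control replicate 1 the list had 2 calls with let-7d and 1 with let-7e.

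**Figure D4:**
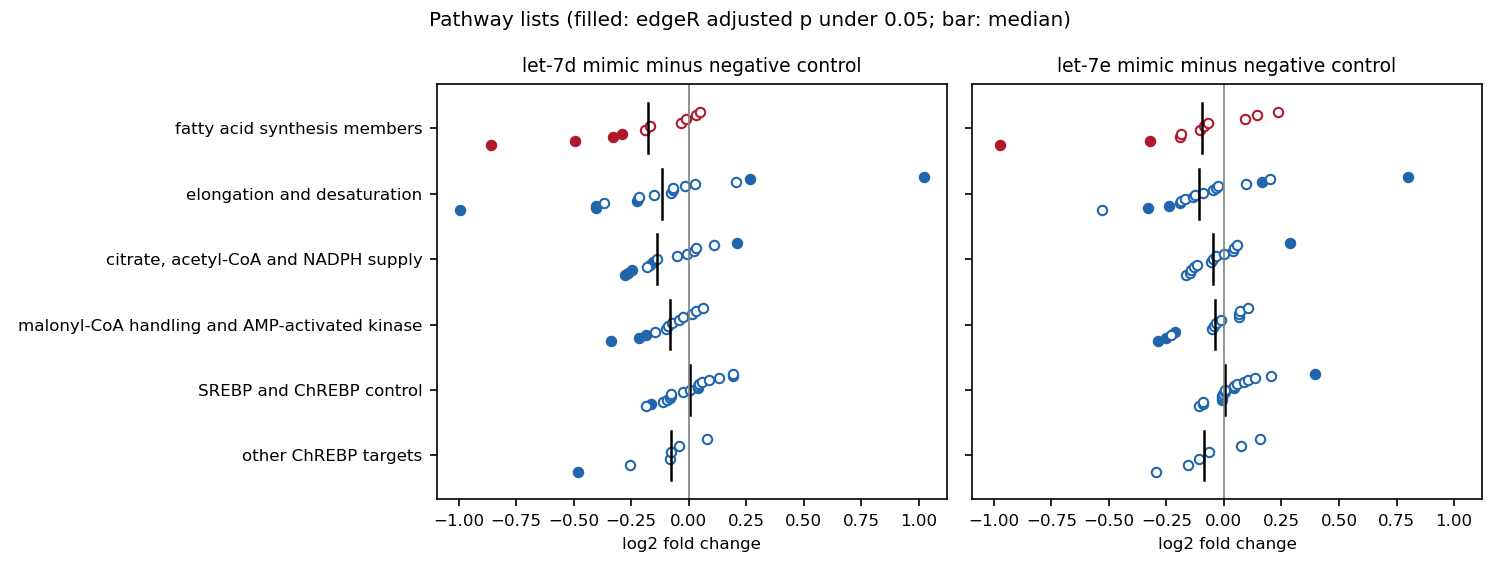
Log2 fold change (horizontal axis) of each gene with let-7d (left) and let-7e (right), for the 10 genes and 5 lists of related genes; filled points passed edgeR at an adjusted p under 0.05 and bars are list medians. The 10 genes have medians of -0.18 and -0.095, and the list of SREBP and ChREBP control genes has medians of 0.0074 and 0.0059.

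The promoters of the genes were read because 4 of the 10 moved together with let-7d. RefSeq windows of 250 bases before to 50 bases after the start (GRCm38.p6) were found for 8 of the 10, and Scd1 and Scd2 were not matched. The sterol response motif TCACNCCAC occurs in 1 of the 8 (Mlxipl) and in 1.2% of 32851 promoters, and the E-box CACGTG in 1 of the 8 (Mlxipl) and in 7.2%. The NF-Y motif CCAAT, bound by a factor that works beside SREBP, occurs in 6 of the 8 (Acly, Fasn, Me1, Mlxipl, Srebf1 and Thrsp) and in 37.4%, and the Sp1 motif GGGCGG in 4 of the 8 and in 35.7%. Both strands were searched, and some genes have several annotated starts, so these shares are not over equal numbers of windows. The windows of the genes called with both mimics are printed on the gene's strand, with NF-Y letters in capitals. In Fasn a match on each strand overlaps as CCAATTGG.
Thrsp, chr7:97417501-97417800, minus strand: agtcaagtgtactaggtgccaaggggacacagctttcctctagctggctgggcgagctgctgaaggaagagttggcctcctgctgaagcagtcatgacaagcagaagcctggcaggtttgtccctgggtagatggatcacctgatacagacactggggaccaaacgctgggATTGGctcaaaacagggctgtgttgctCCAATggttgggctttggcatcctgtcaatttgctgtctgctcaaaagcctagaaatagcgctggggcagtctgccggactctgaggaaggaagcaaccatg
Fasn, chr11:120824498-120824797, minus strand: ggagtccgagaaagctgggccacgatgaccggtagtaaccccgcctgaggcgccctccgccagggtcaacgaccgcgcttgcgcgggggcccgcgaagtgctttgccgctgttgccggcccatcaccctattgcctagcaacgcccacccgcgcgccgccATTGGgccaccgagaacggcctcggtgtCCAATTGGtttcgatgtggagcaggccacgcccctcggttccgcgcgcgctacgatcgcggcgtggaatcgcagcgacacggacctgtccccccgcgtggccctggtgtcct
In Thrsp the matches start 79 and 52 bases before the transcription start, and in Fasn 90, 62 and 59 bases before it. A match describes these letters and says nothing of binding.

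The average response of the 10 genes was followed library by library as the mean log2 deviation from the control mean of the same series. It was -0.13, -0.14, -0.44 and -0.27 in let-7d replicates 1 to 4 and -0.064, -0.15, -0.20 and -0.29 in let-7e replicates 1 to 4, below 0 in all 8. Thrsp weighs heavily in this mean, at -0.55, -0.56, -1.53 and -1.45 with let-7d and -0.49, -0.77, -1.50 and -2.28 with let-7e. Scd2 and Srebf1 stood above 0 in every let-7e library, and the mean without Thrsp was not computed. A mean below 0 therefore does not show that the 10 genes fell together. Among the members Me1 lay closest to the average of the 10, at a root mean square distance of 0.077 over the 8 mimic libraries, and Thrsp farthest, at 1.07. Of 11329 other genes with an average of at least 2 on the log2 CPM scale, the 5 closest were Nsdhl (0.037) and Cyp51 (0.041), enzymes of sterol synthesis, Mief1 (0.043), a mitochondrial fission factor, Picalm (0.052), a clathrin assembly protein, and Ythdf3 (0.052), a reader of methylated adenosine in RNA. This likeness is measured to a mean that includes Thrsp, and it is a description with no test.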

How the data were processed

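The authors deposited whole-number counts per Ensembl gene. The submitters' processing notes list the tool STAR and the build GRCm38.p6, without giving their roles. Which program counted reads, whether it used strand and what it did with multiply mapped reads were not given in the sources. Per the file name, the authors removed genes with low CPM, and the lowest maximum CPM left is 0.456. The other table, labelled RPKM by the authors, was set aside: the gene length it implies differed between libraries by a median ratio of 69.4 over 12240 genes. Symbols, positions and exon lengths came from GENCODE vM21 (15736 of 15754 identifiers matched without version).

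Counts were scaled by TMM and tested in edgeR 4.0.16 (R 4.3.3) by quasi-likelihood over all 12 libraries, with terms for group and series (8 residual degrees of freedom). A fit with a mean for each group and series (6) gave the values within series and their differences. filterByExpr removed 0 genes. P-values are two-sided, adjusted after Benjamini and Hochberg over all genes, and called under 0.05; SE is the log2 fold change divided by the root of F. DESeq2 1.42.0 and limma 3.58.1 (voom) were alternatives, with other scalings, filters, a replicate block and fits without each library. The fits were tested on simulated data. Of list genes, at most the 4 called with the smallest p per list and comparison could be named, besides all members, Hmga2, Dicer1 and the 5 genes closest to the members' mean; markers named beside them, and Scd2 in the comparison of mimics, were singled out after their values were seen. Members and lists were chosen with earlier results of these data known. The design text gives n = 6, and 4 libraries per group are listed. The 2 libraries of each group and series never agreed within counting noise (chi-square per degree of freedom 2.37 to 10.2).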

Additional observations from a re-analysis of the deposited data

Results flagged for a closer look

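The response of Elovl3 to let-7d differed between the series in the test of that difference. The series 2 effect minus the series 1 effect was -1.40 ± 0.26 on the log2 scale (edgeR adjusted p = 0.0467), and the mean level was 1.77 CPM with let-7d in series 2, against 7.38 CPM in its controls, and 68.5 CPM with let-7d in series 1, against 109 CPM in its controls. The difference kept its sign and ran from -1.04 to -1.85 over 14 alternatives, of which 5 called it, with adjusted p from 9.61e-06 by DESeq2 to 0.226 without let-7d replicate 2. It was 0.0757 by limma-voom. With let-7e Elovl3 also fell within series 2 (-0.91 ± 0.19, edgeR adjusted p = 0.0180). The labels do not give what sets the series apart, and the cause was not tested.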

How the results depend on the processing

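Without a series term edgeR called 0 members with let-7d and 0 with let-7e, since the spread between series then enters the error. Within series 1 alone it called 2 with let-7d and 1 with let-7e, and within series 2 alone 4 and 1. The let-7e count of 2 was 1 under library totals with no scaling factor and 4 by DESeq2. Leaving out 1 library gave 4 to 5 members with let-7d, 1 to 3 with let-7e, 0 between the mimics, 0 for the difference between series with let-7d, 0 to 2 for that with let-7e and 10 between series. No call of a member changed direction under any of these settings. Same-numbered libraries share their series; beyond it, their deviations correlated by -0.065 to 0.188, so the numbers were not taken as pairs. With the replicate number as a block, edgeR called 4 members with let-7d, 2 with let-7e and 0 between the mimics. Over all genes, the 2555 let-7d and 1496 let-7e calls became 7 and 0 without a series term and 1348 and 390 within series 2 alone, and the let-7e calls 844 and 874 without let-7e replicate 1 or 2. The 24 calls between the mimics became 11 under library totals, 115 by DESeq2, 5 with the replicate block, 98 with those 8 libraries only, 1 without a series term, 1 and 10 within series 1 and series 2, and 3 to 17 without any single mimic library (17 without let-7e replicate 4). The 38 let-7d and 1 let-7e calls for the difference between series became 69 and 2 under library totals, 195 and 50 by DESeq2, and 16 and 0 by limma-voom, and 22 let-7d calls were left by a filter of at least 1 CPM in at least 4 libraries. Without 1 library they ran from 0 (without let-7d replicate 2) to 219 (without control replicate 1) with let-7d, and from 0 to 153 (without control replicate 1) with let-7e. With 2 libraries per group and series the values within a series rest on a spread shared across groups. In series 2 Thrsp (44 to 276 counts) and Mlxipl (46 to 72 counts) are limited by depth; the labels name no molecular identifiers.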
